A study of Mus musculus with 2 samples.

Results

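Promoter peaks off the start are the Sox4 peaks that lie close to the start of an annotated transcript without reaching over one. They were chosen from the deposited peak list by position alone: rows in the promoter class whose distances to all listed transcription start sites (TSSs) contain no 0, a 0 meaning that the peak interval overlaps the TSS. The rule found 626 such peaks among the 6171 promoter peaks (10.1%, exact 95% interval 9.40 to 10.9%) and the 8730 peaks of the whole list, and the other 5545 promoter peaks covered at least 1 TSS. The promoter class of the list ran from 4938 bp upstream of the closest TSS to 490 bp downstream of it. Inside the gene is used here for downstream of the closest TSS, by the sign of the deposited distance. The gene's end was not checked for this, so a peak so named can lie past a short gene such as a microRNA. Distances are those of the deposited list and run from the near edge of the peak interval, not from its summit.

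The material was 1 Sox4 bioChIP library, set beside 1 input chromatin library in the design. Both came from C57BL/6 progenitor B cells of embryonic fetal liver that carried 4 retroviral constructs, namely BirA (the ligase that adds biotin), p190 Bcr-Abl (the oncogene that immortalized the cells), SE-Cre, and BAP-Sox4 (Sox4 with a tag that BirA biotinylates). Cells were sorted after each transduction, and tagged Sox4 was recovered on streptavidin beads (the labels also name SOX4 under antibody). All peaks are of the bioChIP library, no values of the input library were used here, and no pull-down from cells without tagged Sox4 was analysed. A peak alone is thus no proof of Sox4 binding, binding by retroviral Sox4 may differ from that of the cell's own, and a peak list holds no expression by which the labelled cell type could be checked. With 1 library nothing has a replicate check, no test between groups of peaks was made, and the intervals given cover counting error only. The list holds 763284 tags in peaks, and the library's total read number is unknown here.

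Sox4 is a transcription factor of the SOX family, which binds DNA through an HMG box and bends it, and it is needed for early B-cell development. A promoter is the stretch around the place where transcription begins, and a gene often has several annotated starts. Proteins bound a little upstream or just inside a gene can act on the same start. A microRNA gene is annotated by its hairpin, which is cut out of a longer primary transcript, so that the annotated start of a microRNA is commonly not the place where transcription begins.

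The highest off-start peak next to a microRNA lay upstream of the Mir17 cluster, which is known in B cells for promoting survival and for its activity as an oncogene. The mature microRNAs of that cluster, and those of Mir142, which is expressed across blood cells, are shown because their 2 loci held the strongest of the microRNA peaks. Sequences are from RefSeq (GRCm38.p6), 5′ to 3′, and capitals mark the seed, bases 2 to 8. miR-17-5p and miR-20a-5p share 1 seed, miR-19a-3p and miR-19b-3p share another, and miR-18a-5p differs from the first pair in its seed.
miR-17-5p: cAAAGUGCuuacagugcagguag
miR-20a-5p: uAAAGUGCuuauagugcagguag
miR-18a-5p: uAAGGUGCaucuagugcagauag
miR-19a-3p: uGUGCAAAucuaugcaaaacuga
miR-19b-3p: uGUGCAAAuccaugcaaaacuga
miR-92a-3p: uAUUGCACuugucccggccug
miR-142a-5p: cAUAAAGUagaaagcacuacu
miR-142a-3p: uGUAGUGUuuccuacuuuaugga

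Promoter sequences are shown for 3 of the genes whose off-start peak lay within 250 bp of the start: Klf7, which had the highest score of all members (peak 115 bp upstream), Amotl1, one of the strongest peaks inside a gene (123 bp inside), and Saysd1, one of the peaks nearest to a start (7 bp inside). Each sequence runs from 250 bases before to 50 bases after the gene's start in RefSeq (GRCm38.p6), 5′ to 3′ along the gene, and each of these genes has 1 promoter in that table. Whether that start is the one used in the deposited list, which is on mm9, was not tested. Capitals mark ACAAAG or ACAATG on either strand, letters of the kind that SOX factors recognise. ACAAAG was present in 18.7% and ACAATG in 12.6% of the 32851 promoters of the table. Among the 20417 promoters of protein-coding genes the shares were 16.7% and 10.4%. Saysd1 holds 1 ACAAAG, and the letters searched are not in the windows of Klf7 and Amotl1. Counted from that start, these windows are not the sequence under the peaks, which was not searched. The Amotl1 window ends before its peak begins, and only part of the Klf7 window falls under its peak. The ACAAAG of Saysd1 lies before the start and outside its peak.
Klf7 promoter: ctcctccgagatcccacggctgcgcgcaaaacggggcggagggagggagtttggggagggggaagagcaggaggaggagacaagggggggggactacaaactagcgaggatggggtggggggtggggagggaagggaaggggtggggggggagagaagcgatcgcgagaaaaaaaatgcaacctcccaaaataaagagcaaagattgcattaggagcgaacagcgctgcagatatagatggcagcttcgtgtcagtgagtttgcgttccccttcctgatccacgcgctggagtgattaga
Amotl1 promoter: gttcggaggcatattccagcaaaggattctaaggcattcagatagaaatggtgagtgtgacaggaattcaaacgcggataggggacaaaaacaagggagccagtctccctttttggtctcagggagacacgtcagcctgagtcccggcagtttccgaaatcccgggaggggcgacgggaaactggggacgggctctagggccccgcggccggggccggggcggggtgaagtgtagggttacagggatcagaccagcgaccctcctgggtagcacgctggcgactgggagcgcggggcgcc
Saysd1 promoter: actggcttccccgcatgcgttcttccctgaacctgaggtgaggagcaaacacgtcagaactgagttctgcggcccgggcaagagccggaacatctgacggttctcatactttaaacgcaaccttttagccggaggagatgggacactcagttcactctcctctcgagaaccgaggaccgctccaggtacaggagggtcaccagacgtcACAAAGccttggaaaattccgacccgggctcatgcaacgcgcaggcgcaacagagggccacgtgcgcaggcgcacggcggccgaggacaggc
The observed-to-expected ratio of CpG dinucleotides was 0.742 in the Klf7 window, 0.781 in that of Amotl1 and 0.889 in that of Saysd1, against a median of 0.589 over the promoters of protein-coding genes in the table. These windows were not chosen to stand for the rest, and others among the strongest members and those nearest to a start lay on either side of that median. The ratio was 0.920 in the window of Anp32b and 1.07 in that of Tmem170b, neither of which holds the SOX letters. Like that of Amotl1, the Anp32b window ends before its peak begins. The 2 promoters of Dst had 0.836, with 1 ACAAAG, and 0.378, with none, and the 3 of Mllt10 had 0.938, 0.450 and 0.521, all with none. If the Dst window with ACAAAG belongs to the start of the deposited list, which was not tested, its ACAAAG lies under the Dst peak. On the same untested condition, nearly all of the Tmem170b window before the start lies under the Tmem170b peak.

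Off-start peaks were spread unevenly around the start and were more closely packed just inside genes than just upstream of them. Upstream of the closest TSS lay 419 of the 626 peaks (66.9%, 63.1 to 70.6%), at a median distance of 1506 bp (quartiles 570 and 2902 bp). Inside the gene, in the sense of downstream of the closest TSS, lay 207 peaks (33.1%, 29.4 to 36.9%). Their median distance was 229 bp (quartiles 95.5 and 363 bp), on a side where the promoter class ends at 490 bp. Among the 303 members within 500 bp of a TSS, 207 were inside the gene (68.3%, 62.8 to 73.5%) and 96 were upstream. Without the members that lay within 1 kb of an interval covering a TSS, 150 of 231 were inside (64.9%, 58.4 to 71.1%).

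Per 100 bp there were 45.6 peaks in the first 250 bp inside genes and 37.2 in the next 250 bp. Upstream there were 18.4 per 100 bp in the first 250 bp and 20 in the next 250 bp. The upstream density was 12.4 per 100 bp between 500 and 1000 bp, 10.2 between 1000 and 2000 bp and 5.30 between 2000 and 5000 bp. The excess on the downstream side was smaller farther out, where peaks downstream of a start belong to other position classes. Of these, 116 lay 500 to 1000 bp downstream of the closest start, 127 at 1000 to 2000 bp and 185 at 2000 to 5000 bp. Promoter peaks at the same distances upstream numbered 62, 101 and 160. Gene ends were not used in these counts, so the downstream ones can include peaks at or past a gene's end. Distances to the near edge do not locate the summit, which the list gives but does not relate to the TSS.

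**Figure D1:**
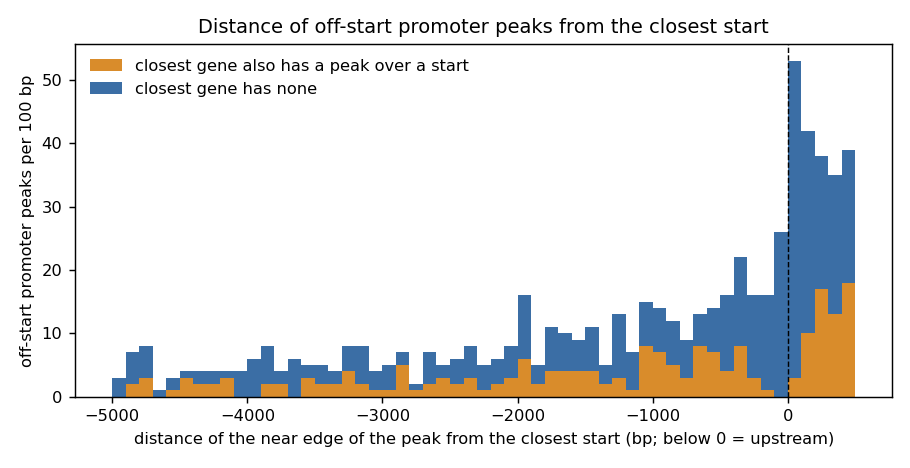
Number of off-start promoter peaks in bins of 100 bp by the distance in bp between the near edge of the peak and the closest TSS. Values below 0 are upstream and those above 0 downstream, called inside the gene. Bars are split by whether the closest gene also has a peak over a TSS. The 207 peaks inside genes fill less than 500 bp, whereas the 419 upstream peaks extend to 4938 bp.

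Single peaks at either edge of the class were of middling or low strength, several of them near the lowest score of the list, 50.03. The 5 peaks nearest to a TSS belonged to Dst, which encodes a cytoskeletal linker (2 bp upstream, 50 tags, fold 6.01, score 92.8), Tmem170b (2 bp upstream, 75 tags, fold 3.79, score 106.1), Mllt10, which encodes a partner of the histone methyltransferase DOT1L (4 bp inside, 38 tags, fold 3.76, score 53.7), Saysd1 (7 bp inside, 47 tags, fold 4.34, score 50.2) and Rps6ka3, a kinase of the MAPK pathway (8 bp upstream, 71 tags, fold 4.16, score 117.8). Peaks so close miss the start by much less than their own width, and a slightly wider interval would have put them in the other set. The 5 farthest belonged to Arl5c, Spata32, Grm4, Klhl30 and Tmem184a, at 4884 to 4938 bp upstream, with scores of 50.6 to 100 and folds of 2.70 to 5.04. The peaks of Mllt10, Saysd1, Spata32, Grm4 and Tmem184a scored below the lower quartile of all off-start peaks, 63.8.

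Promoter peaks off the start had lower median scores, folds and tag numbers and were narrower than those over a start. The deposited score, taken to be a p-value on the minus 10 log10 scale, had a median of 87.8 (95% interval of the median 82.4 to 92.2, n = 626), as against 120.7 (118.2 to 123.4, n = 5545) for promoter peaks over a TSS. The median fold of tags over the background expected by the peak caller was 4.16 (4.09 to 4.26), against 4.50 (4.44 to 4.55) over a TSS. Among peaks at or above the median score of the list, it was 5.18 (4.79 to 5.49) off the start, against 5.11 over a TSS. Score and fold rest on the same tags, so choosing peaks by score also limits their fold. This setting therefore cannot tell whether the difference in fold is absent among strong peaks. The peaks held a median of 60 tags (quartiles 48 and 83.8), against 80 (60 and 112) over a TSS. Their median width was 824 bp (quartiles 719.5 and 1028 bp), against 999 bp (812 and 1271 bp). The intervals of these medians do not overlap, although their errors take peaks as independent, which neighbouring intervals are not.

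Width is tied to the choice itself, since a wide interval reaches a start more easily, and wide peaks also collect more tags and higher scores. Per kb of peak, the median was 71.2 tags off the start (70.2 to 72.5), against 78.3 (78.0 to 78.7) over a start. Among peaks with a width between the quartiles of the whole list (759 to 1168 bp), the median score was 98.3 in 305 off-start peaks, against 109.4 in 2818 peaks over a start. In the same peaks the median fold was 4.06 (3.93 to 4.33), against 4.38 (4.32 to 4.43), and these intervals overlap. The median density was 74.1 tags per kb (72.6 to 75.6), against 77.2 (76.7 to 77.6). The median widths of these peaks still differed, at 900 bp off the start and 927 bp over a start. In score, tags, width and density, off-start peaks stood near the 2559 peaks outside the promoter class, which had a median score of 82.8, 58 tags, a width of 800 bp and 71.2 tags per kb. The median fold of those peaks was 4.35 (4.29 to 4.39), with an interval above that of the off-start peaks.

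**Figure D2:**
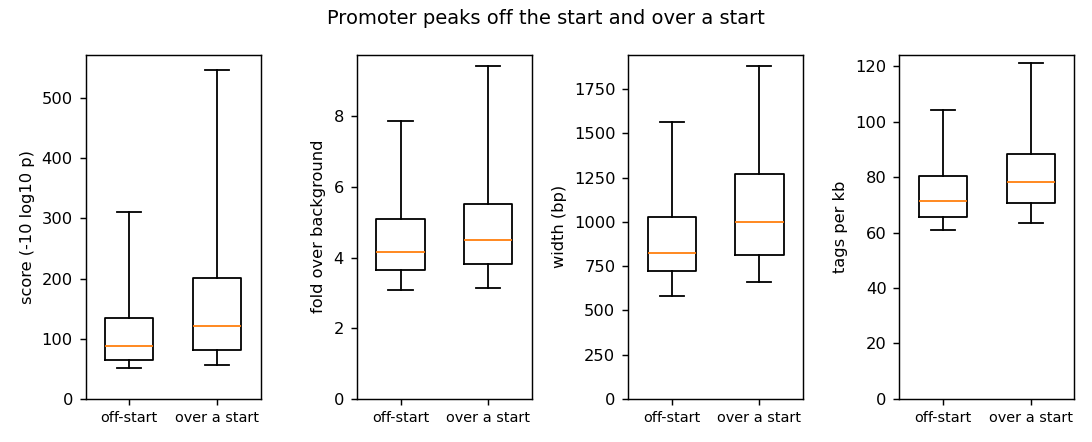
Score, fold over background, width in bp and tags per kb of the 626 off-start promoter peaks (left box of each panel) and the 5545 promoter peaks over a start (right box). Lines are medians, boxes quartiles and whiskers the 5th and 95th percentiles of peaks of 1 library, and the off-start box is lower in each panel with wide overlap.

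Median strength changed little with distance. The median score was 84.2 at 2000 to 5000 bp upstream (159 peaks), 86.7 at 1000 to 2000 bp (102), 93.3 at 500 to 1000 bp (62), 95.4 at 250 to 500 bp (50) and 90.6 in the last 250 bp before the start (46). Inside genes it was 89.6 in the first 250 bp (114) and 86.9 in the next (93). The median fold lay between 3.98 and 4.39 in all 7 bands. Peaks with a fold of at least 10 numbered 1 to 5 per band, the most at 500 to 1000 bp upstream (5 of 62). These counts are too small to compare bands. Upstream peaks had a median fold of 4.24 (4.15 to 4.39), compared with 4.05 (3.91 to 4.17) for peaks inside genes, and the median tag numbers were 59 and 62. A score at or above the median of the whole list was reached by 233 of the 626 (37.2%, 33.4 to 41.1%), compared with 3233 of 5545 over a start (58.3%, 57.0 to 59.6%) and, by definition, 50% of all peaks.

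Strong off-start peaks were few. Of the 626 peaks, 17 had a fold of at least 10 (2.72%, 1.59 to 4.31%), against 239 of 5545 over a start (4.31%, 3.79 to 4.88%), and 4.39% of all peaks in the list reached it. The intervals of these 2 shares overlap. Among the peaks of these middle widths the order was the other way, with 3.28% (1.58 to 5.95%) off the start and 1.92% (1.44 to 2.49%) over a start, again with overlapping intervals. At or above the median score, 7.30% (4.31 to 11.4%) off the start reached that fold, against 7.39% (6.51 to 8.35%) over a start. Of the 17, 12 lay upstream and 5 inside a gene, and for 12 (70.6%, 44.0 to 89.7%) the closest gene had no peak over any of its starts, a share near the 67.7% (63.9 to 71.4%) of all 626.

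**Figure D3:**
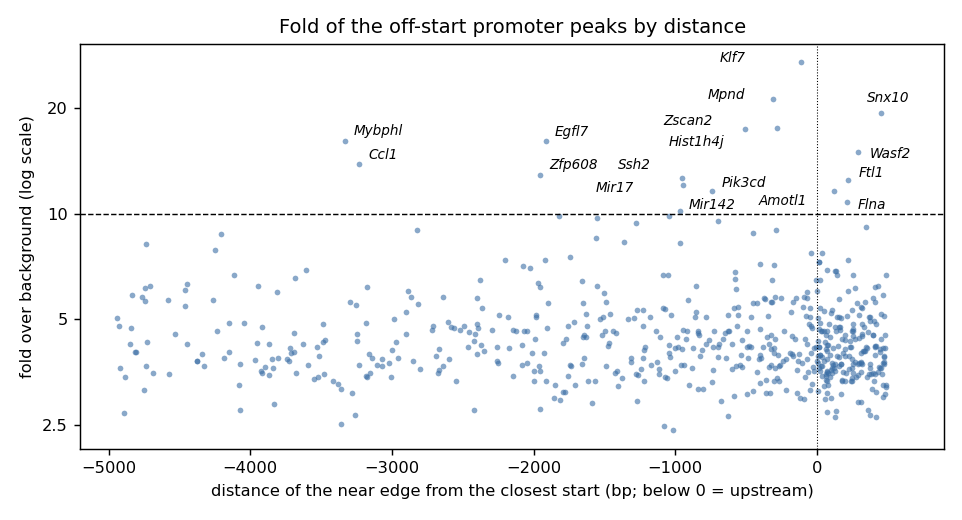
Fold over background (log scale) of each of the 626 off-start promoter peaks against the distance in bp of its near edge from the closest TSS, with the 17 peaks of fold 10 or more (dashed line) named by their closest gene. Peaks above the line occur from 3334 bp upstream (Mybphl) to 453 bp inside the gene (Snx10).

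The highest score was at Klf7, which encodes a zinc finger factor of the KLF family. Its peak (chromosome 1, 64168077 to 64169288, mm9; transcript NM_033563) held 285 tags (exact Poisson 95% interval 252.9 to 320.1) at a fold of 27.1 and score of 1600.1, rank 47 of 8730. It lay 115 bp upstream of the only start listed, and the next interval of the list was 178403 bp away. The peak before the Mir17 cluster followed (chromosome 14, 115439313 to 115441944) with 403 tags (364.6 to 444.3), a fold of 12.1 and score of 1562.5, rank 51. These were the only members among the 100 highest scores of the list.

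Zscan2, a gene of a zinc finger protein, had a peak 510 bp upstream of its start (chromosome 7, 88004869 to 88006484; 261 tags, 230.3 to 294.7; fold 17.5, score 986.2). Hist1h4j, a histone H4 gene, had a peak 280 bp upstream (chromosome 13, 21825647 to 21826685; 158 tags, 134.3 to 184.6; fold 17.6, score 703.4). Neither start was covered by another peak. Histone genes are near-identical and clustered, and whether reads were placed on the right copy was not tested.

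Snx10 encodes a sorting nexin of endosomes. Its peak lay 453 bp inside the shorter transcripts (chromosome 6, 51494974 to 51495945; 155 tags, 131.6 to 181.4; fold 19.5, score 701.3) and within the body of a longer one. Mybphl, a gene of a myosin-binding protein, was closest to a peak 3334 bp upstream (chromosome 3, 108163607 to 108164495; fold 16.2, score 665.5) that also lay inside another listed gene. Further peaks of fold 10 or more without a start peak at the closest gene were at Ccl1, which encodes a chemokine (3230 bp upstream, 142 tags, fold 13.9), at Zfp608, a zinc finger gene (1952 bp upstream, 138 tags, fold 12.9), and at Amotl1, an angiomotin relative (123 bp inside, 179 tags, fold 11.6). The peak 344 bp inside Parp8, of the ADP-ribosyltransferase family, had 199 tags at a fold of 9.18 and score of 516.2.

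Other strong off-start peaks accompanied a weaker peak over a start of the same gene. Mpnd, which encodes a protein with an MPN domain, had its off-start peak 313 bp upstream (chromosome 17, 56147370 to 56148311) with 175 tags, a fold of 21.3 and score of 840.3, against a fold of 5.09 and score of 124.0 for the peak over its start. Egfl7, which encodes a secreted protein of blood vessels, had one 1914 bp upstream of the closest start (225 tags, fold 16.1, score 759.2), against a fold of 3.22 and score of 88.2 over a start. Wasf2, which encodes the actin regulator WAVE2, had one 293 bp inside the gene (221 tags, fold 15.0, score 727.5), against a fold of 3.68 and score of 134.0. Dusp6, which encodes a phosphatase of ERK kinases, had one 695 bp upstream (200 tags, fold 9.52, score 645.5), against a fold of 3.26 and score of 103.5. The peak 127 bp inside Anp32b, which encodes a nuclear histone chaperone, had a fold of 6.85 and score of 448.7, against 4.14 and 112.9 for the peak over the start. In each of these genes the values of the off-start peak were the higher, and except at Egfl7 the 2 intervals were at most 140 bp apart.

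In all, 202 off-start peaks (32.3%, 28.6 to 36.1%) belonged to a closest gene that also had a peak over one of its starts, and 424 did not. Without the members within 1 kb of an interval over a start, a setting chosen after seeing the data, the share was 17.2% (14.0 to 20.8%). That setting takes out members next to a start peak, so the lower share is largely fixed by it. By distance, with all members kept, the share ran between 2.17% (0.0550 to 11.5%) in the last 250 bp before the start and 48.4% (35.5 to 61.4%) at 500 to 1000 bp upstream. The 202 peaks came from 195 genes, and the median distance to the start peak was 537.5 bp. The off-start peak usually had the lower values: its median score was 93.0, against 129.2 for the highest peak over a start of the same gene, and its median fold was 4.25, against 4.73. It had the higher score in 68 of the 202 pairs (33.7%, 27.2 to 40.6%) and the higher fold in 84 (41.6%, 34.7 to 48.7%). Where a gene had several start peaks the highest was taken, which favours the start peak in this comparison.

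At some genes with strong start peaks the off-start peak was much the lower. Ptma, which encodes prothymosin alpha, had a peak 3867 bp upstream with a score of 50 and a fold of 4.26, against 3088.6 and 32.9 over its start. Socs2, a suppressor of cytokine signalling, had one 313 bp inside the gene with a score of 70.0 and a fold of 4.01, against 744.9 and 10.2. Arid1a, which encodes a BAF complex subunit, had one 2584 bp upstream with a score of 405.8 and a fold of 4.74, against 1623.6 and 10.4. Ptma and Socs2 were chosen for naming after their values were seen.

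**Figure D4:**
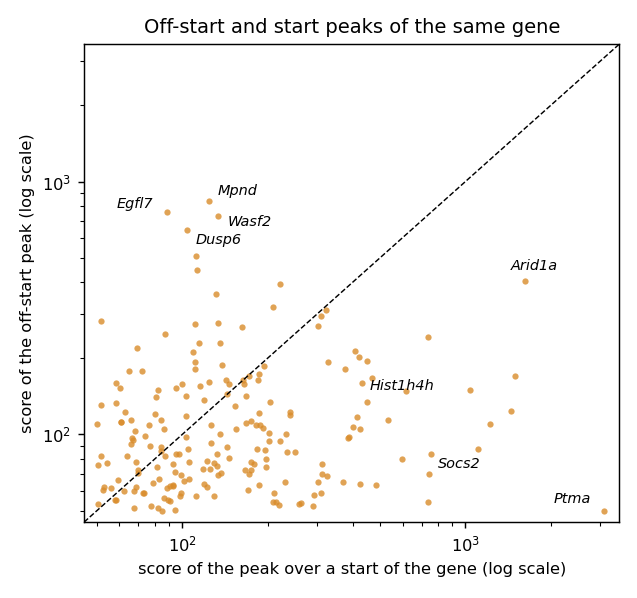
Score of each off-start peak against the highest score of a peak over a start of the same gene (202 pairs, both axes on a log scale, dashed line at equality). The off-start peak is above the line in 68 pairs, among them Mpnd, Egfl7, Wasf2 and Dusp6, and below it at genes such as Arid1a, Socs2, Hist1h4h and Ptma.

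Off-start peaks often lay next to other intervals of the list. Another interval was within 1 kb of 166 of the 626 (26.5%, 23.1 to 30.2%), against 249 of 5545 peaks over a start (4.49%, 3.96 to 5.07%) and 267 of 2559 peaks outside the promoter class (10.4%, 9.28 to 11.7%). The median distance to the next interval was 7469 bp for off-start peaks, against 40010 bp for peaks over a start, 21083 bp for peaks outside the promoter class and 31780 bp for all peaks. For 120 members (19.2%, 16.2 to 22.5%) the neighbour within 1 kb covered a TSS, and 55 members were under 100 bp from another interval. If intervals under 1 kb apart were merged, 487 of 6012 merged promoter regions (8.10%, 7.42 to 8.82%) remained off the start. Whether such neighbours are separate sites or 1 region divided by the peak caller was not tested.

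Several off-start peaks at 1 gene were the exception: 563 closest genes had 1, 27 had 2 and 3 had 3. Rasgrp2, which encodes an activator of Rap GTPases, had peaks 1516 and 303 bp upstream and 420 bp inside, at scores of 125.0, 280.1 and 77.4, and no peak over its start. Ndufa4l2, a gene related to a mitochondrial respiratory subunit, had peaks 2397, 1513 and 735 bp upstream at scores of 146.2, 102.4 and 80.2. Espn, which encodes the actin-bundling protein espin, had peaks 1556 to 2000 bp upstream of 3 different transcripts at scores of 117.6, 51.8 and 51.2.

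Some off-start peaks lay within other annotated genes or before a second gene. Of the 419 upstream peaks, 72 (17.2%, 13.7 to 21.1%) lay in the body of another listed gene and 22 (5.25%, 3.32 to 7.84%) in the body of another transcript of the same gene. At 29 of the 419, the peak was also within 5 kb upstream of a second gene (6.92%, 4.68 to 9.79%). Of the 207 peaks inside genes, 32 (15.5%, 10.8 to 21.1%) were also within 5 kb upstream of a second gene and 22 (10.6%, 6.78 to 15.7%) lay inside another transcript of the same gene. In the body of another listed gene lay 7 of the 207 (3.38%, 1.37 to 6.84%). These positions were not counted for peaks over a start or outside the promoter class, so they cannot be called particular to off-start peaks. A single gene was listed for 216 of the 626 (34.5%, 30.8 to 38.4%), compared with 29.6% (28.4 to 30.9%) of peaks over a start. The share was 42.4% (40.5 to 44.4%) outside the promoter class and 33.7% over all peaks, near that of the off-start peaks.

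MicroRNA genes were closest to 17 of the 626 peaks (2.72%, 1.59 to 4.31%), as against 20 of 5545 peaks over a start (0.361%, 0.221 to 0.557%) and 34 of 2559 outside the promoter class (1.33%, 0.922 to 1.85%). The 17 peaks belonged to 15 microRNA genes, 13 lay upstream of the annotated start, and 8 lay inside another listed gene. The scores of 8 of the 17 were at or above the median of the whole list, and 2 peaks had a fold of 10 or more.

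The peak of the Mir17 cluster lay 949 bp upstream of Mir17, 1129 bp from Mir18, 1278 bp from Mir19a, 1435 bp from Mir20a, 1583 bp from Mir19b-1 and 1705 bp from Mir92-1, whose mature sequences are given above. The deposited annotation puts the start of the host transcript Mir17hg 1668 bp from the peak, between the last pair of these hairpins. Mir142 had 2 peaks, 970 bp upstream (chromosome 11, 87567933 to 87569396; 193 tags, fold 10.2, score 592.5) and 4741 bp upstream (84 tags, fold 5.65, score 162.1). Mir181c, of a microRNA family with a known role in lymphocyte development, had a peak 4206 bp upstream with 171 tags, a fold of 8.77 and score of 501.9. The peak 2376 bp upstream of Mir21, a microRNA often raised in tumours, had 75 tags at a fold of 6.47 and score of 173.1, and lay inside another listed gene. Mir200c had 2 peaks, 2200 and 492 bp upstream, at folds of 7.37 and 3.07. Mir21, Mir142, Mir181c and Mir200c were named after their values were seen.

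Genes of the B lineage were among those with off-start peaks. Across the 20949 protein-coding genes of the RefSeq table on chromosomes 1 to 19 and X, 617 (2.95%) had an off-start promoter peak within 5 kb of a start. The 13 gene lists hold 284 genes, of which 36 had such a peak, and for 20 of the 36 no start was covered by another peak. With off-start peaks at or above the median score of the list only, the 36 became 18. Of all protein-coding genes, 1.94% had an off-start peak alone and 28.4% had a peak over a start. As many as 149 of the 284 listed genes had a peak over a start, so these lists hold many genes with peaks of either kind, and a count above 2.95% is not particular to any of them.

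B-lineage transcription factors had off-start peaks in 6 of 26 cases (23.1%, exact interval 8.97 to 43.7%), and 14 of the 26 had a peak over a start. At or above the median score, 3 of the 26 had an off-start peak. Lef1, a partner of beta-catenin, had the highest score, 2372 bp upstream (206 tags, 178.8 to 236.1; fold 4.22, score 213.6), against a fold of 5.31 and score of 407.8 over its start. Bcl11a, a factor needed for lymphoid development, had a peak 480 bp upstream of the closest start (109 tags, fold 4.19, score 167.7), against 6.22 and 466.2 over a start. The Sox4 gene had its peak 4074 bp upstream (104 tags, fold 3.73, score 141.1) and none over its start. Tcf4, which encodes the E protein E2-2, had one 252 bp inside a transcript (60 tags, fold 3.73, score 86.6), against 9.79 and 196.6 over a start. The remaining members were Ebf1, a factor that commits cells to the B lineage, 4688 bp upstream at a fold of 3.51, and Spib, an ETS factor, 1856 bp upstream at a fold of 2.98, neither with a peak over a start.

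Surface and signalling genes of B cells and the pre-BCR had off-start peaks in 4 of 24 cases (16.7%, 4.74 to 37.4%), and 8 of the 24 had a peak over a start. All 4 off-start genes stayed at or above the median score. Cxcr4, the chemokine receptor that holds progenitors in the bone marrow, had one 450 bp inside the gene (93 tags, fold 5.18, score 197.2). Blnk, the adaptor of pre-BCR signalling, had one 356 bp upstream (104 tags, fold 4.46, score 180.0). Neither of these genes had a peak over a start. Cd72, a surface co-receptor, had a peak 1793 bp upstream (85 tags, fold 4.27, score 140.1) and one over a start (fold 4.58, score 80.8). No gene of the V(D)J recombination list had an off-start peak (0 of 12, upper exact limit 26.5%), while 8 of the 12 had a peak over a start.

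Genes of immediate early and KLF factors had off-start peaks in 6 of 24 cases (25%, 9.77 to 46.7%), 3 of them at or above the median score, and 13 of the 24 had a peak over a start. Besides Klf7, the genes with an off-start peak included Klf10, with a peak 410 bp inside the gene (185 tags, fold 6.17, score 358.7), against a fold of 4.9 with a score of 131.2 over its start. Jund, an AP-1 subunit, had peaks 397 bp inside (199 tags, fold 4.50, score 240.4) and 1657 bp upstream (91 tags, fold 6.45, score 200.3), and none over its start.

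Bcr-Abl and cytokine signalling genes had off-start peaks in 5 of 25 cases (20%, 6.83 to 40.7%), and 22 of the 25, among them all 5 of these, had a peak over a start. At or above the median score, 1 of the 25 had an off-start peak. Pik3cd, the catalytic subunit p110 delta of PI3 kinase in lymphocytes, had a peak 738 bp upstream of its closest start (chromosome 4, 149076475 to 149077420; 128 tags, 106.8 to 152.2; fold 11.6, score 506.0), against a fold of 4.24 and score of 111.9 over a start. Bcr, the fusion partner in Bcr-Abl, had one 4582 bp upstream (fold 5.69, score 76.4), against 4.25 and 179.2. Sos1, which activates Ras, had one 2148 bp upstream (fold 4.67, score 76.1), against 6.26 and 311.8.

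Wnt/beta-catenin genes had off-start peaks in 5 of 40 cases (12.5%, 4.19 to 26.8%), 2 of them at or above the median score, and 22 of the 40 had a covered start. The genes with an off-start peak were, next to Lef1, Pygo2, a co-activator of beta-catenin (70 bp upstream, fold 5.76, score 121.0), the co-repressor gene Ctbp2 (131 bp upstream, fold 3.81, score 90.8), the beta-catenin gene Ctnnb1 (439 bp inside a transcript, fold 3.66, score 65.0, against 8.05 and 231.1 over a start) and Tcf7 (837 bp upstream, fold 4.56, score 56.5). Cell cycle and survival genes had them in 3 of 26 cases (11.5%, 2.45 to 30.2%), with 1 of the 3 at or above the median score. None of the 3 had a covered start, which 18 of the 26 had. Cdkn2c, which encodes the CDK inhibitor p18, had a peak 469 bp upstream (134 tags, fold 4.17, score 199.2). The cyclin genes Ccnd1 and Ccnd2 had 2 off-start peaks each, those of Ccnd1 2719 and 1112 bp upstream at folds of 4.67 and 3.6, and those of Ccnd2 883 and 3691 bp upstream at folds of 3.64 and 4.03.

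Chromatin regulators had off-start peaks in 3 of 25 cases (12%, 2.55 to 31.2%): Arid1a, given above, and the histone demethylase genes Kdm6b (2078 bp upstream, fold 7.08, score 154.0) and Kdm6a (237 bp inside, fold 3.33, score 61.3), neither of which had a covered start. Of these 3, 2 were at or above the median score, and 21 of the 25 chromatin regulators had a covered start. T-lineage genes had them in 3 of 18 cases (16.7%, 3.58 to 41.4%), namely the Notch target Hes1 (680 bp upstream, 153 tags, fold 2.93), the kinase gene Lck (1464 bp upstream, 63 tags, fold 5.17) and Tcf7, which is also in the Wnt list. Of these, 2 were at or above the median score, and 2 of the 18 had a covered start. The myeloid list had 1 of 14 (Prtn3, a granule protease, fold 4.18), the erythroid list 1 of 14 (Nfe2, an erythroid factor, fold 4.07), the hepatocyte list 0 of 14 and the ribosomal protein list 1 of 24 (Rplp0, fold 3.67), while 20 of those 24 ribosomal protein genes had a covered start. For 6 of the 13 lists the whole interval lay above 2.95%, and for 7 it did not. The lists share genes, were chosen with earlier results of these data known and hold many genes with peaks. This count is thus no test of any list.

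**Figure D5:**
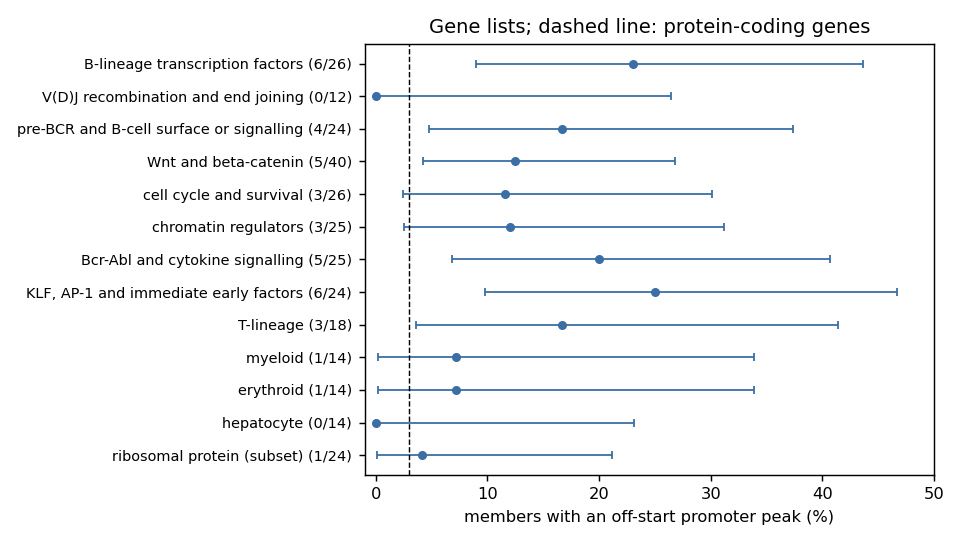
Share of the members of each gene list with an off-start promoter peak within 5 kb of a start, in percent, with exact 95% intervals and the number of members in brackets. The dashed line is the 2.95% found over all protein-coding genes, and the highest shares are those of the KLF and immediate early list (25%) and the B-lineage factors (23.1%).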

How the data were processed

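Binding of tagged Sox4 was profiled in 1 bioChIP library, with an input library that was left aside. The mm9 build, Bowtie 0.12.8 and MACS 1.4.2 are named, per the submitters' processing notes, with no settings. Neither the use of the input as control nor the annotation tool is given in the sources used here.

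The authors deposited for each peak a raw tag count, a fold (a linear ratio of tags to expected background) and a score, taken to be a p-value on the minus 10 log10 scale because its lowest value is 50.03. These are the authors' own values for each peak and rank peaks within this list only. The deposited distances are in bp from the peak interval. Positions are printed as listed.

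Peaks were classed by position, and shares (exact Clopper-Pearson 95% intervals), medians (binomial order-statistic intervals) and tag counts (exact Poisson intervals) were computed with Python 3.11.15, pandas 2.3.3 and SciPy 1.17.1. PCR duplicates are not in these intervals. The classification was run on 20 simulated lists built by the same position rule, which checks the code and not the deposited annotation. Gene names were matched to the RefSeq table (GRCm38.p6): of 15228 listed transcripts, 14989 matched by accession, 195 by symbol, 32 by an older symbol and 12 not at all. MicroRNA and promoter sequences are RefSeq's. Named were the closest genes of the 10 members with the highest score and the 10 with the highest fold, the 5 highest on either side of the start, the 5 nearest and 5 farthest, up to 4 peaks per list and genes with most peaks. Some genes that the rule names are not reported here. Genes named beyond this rule were chosen after their values were seen. The members and lists were chosen with earlier results of these data known.

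A comparison of promoter sequence features over the members was void, because only 447 of their 593 closest genes (75.4%) have a promoter in the table.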

Additional observations from a re-analysis of the deposited data

How the results depend on the processing

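The medians of score, fold and tags per kb and the share at a fold of 10 or more stayed within their counting intervals with members at least 100 or 500 bp from every start, and without members within 1 kb of an interval over a start (a setting chosen after seeing the data). The share of promoter peaks off the start was 8.86% at 100 bp or more, 5.23% at 500 bp or more, 11.6% with 1 gene listed, 6.72% among peaks at or above the median score, 8.20% without members next to a start interval and 8.10% after merging intervals under 1 kb apart, also chosen after seeing the data. The share inside the gene was 28.2% at 100 bp or more and, by construction, 0% at 500 bp or more. The share with a start peak at the closest gene was 36.4% at 100 bp or more, 38.7% at 500 bp or more, 37.5% with 1 gene listed, 37.8% at or above the median score and 17.2% without members next to a start interval. The last of these shares is lower largely by construction. With 1 gene listed the median score was 93.5. At or above the median score, the median fold was 5.18 and 7.30% reached a fold of 10, against 5.11 and 7.39% over a start. For middle widths the medians were 98.3 (score), 4.06 (fold) and 74.1 (tags per kb). Off-start peaks at 36 listed genes became 18 at or above the median score and stayed 36 by closest gene only. The alternatives for promoter sequence features were not run, since that comparison was void. No paired analysis was possible because there is 1 library. Unknown sequencing depth limits every value to ranks within this list.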

Other observations

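Histone genes of the Hist1 cluster on chromosome 13 were closest to 5 of the off-start peaks (0.799%, 0.260 to 1.85%), 7 of 5545 peaks over a start (0.126%, 0.0508 to 0.260%) and 4 of 2559 peaks outside the promoter class (0.156%, 0.0426 to 0.400%). Besides the Hist1h4j peak, these lay 465 bp upstream of Hist1h3e (65 tags, fold 5.09, score 173.3), 490 bp inside the linker histone gene Hist1h1d (84 tags, fold 6.70, score 168.1), 255 bp from the start of Hist1h4h (65 tags, fold 6.70, score 149.5) and 450 bp from that of Hist1h1c (49 tags, fold 4.38, score 86.9). Of the 5, Hist1h4h was the only one with a peak over its start, at a score of 1041.4 and a fold of 23.6. Over all 626, 32.3% had one, and 5 peaks are too few to set against that share. Canonical histone genes are short and make the core and linker proteins of chromatin.

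The share of promoter peaks off the start ranged from 5.83% on chromosome 12 (13 of 223, 3.14 to 9.76%) to 16.9% on chromosome X (11 of 65, 8.76 to 28.3%), and these 2 intervals overlap.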
